A study of Homo sapiens with 24 samples.

Results

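The genes described here were 32 genes of cholesterol and fatty acid synthesis, named by symbol and matched to the Ensembl identifiers of the count files, each to a single identifier. They were 32 of the 60675 genes counted. Cells make cholesterol from acetyl-CoA through mevalonate, squalene and lanosterol, and make fatty acids from the same precursor through malonyl-CoA. Most of these enzymes are transcribed under the control of the SREBP factors, which SCAP carries from the endoplasmic reticulum to the Golgi when sterols are low and which INSIG proteins hold back, with SCAP, when sterols are high. Excess cholesterol leaves the cell through ABC transporters that oxysterol-activated LXR receptors induce. Renal tubule cells use these pathways for membranes, and clear cell renal carcinoma is known for storing cholesterol esters and other lipids.

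RNA-seq counts came from 24 libraries of 2 human kidney lines, ACHN (a renal cancer line, labelled ccRCC) and HK2 (a proximal tubule epithelial line, labelled Human Kidney), grown in DMEM with serum. Each line had 4 groups of 3 replicates. The shNC cells carried a control hairpin, the shKDM5C cells a hairpin against the histone demethylase KDM5C, and the shYY1 cells a hairpin against the zinc finger factor YY1. The double-knockdown cells (labelled Dsh) were YY1-depleted cells infected again, with a GFP-labelled KDM5C hairpin. Hairpins were delivered in lentiviral pLKO.1 and infected cells were selected with puromycin; 2 hairpins were designed for each target, and which of them was used for these libraries is not given in the sources used here. No control with 2 hairpins was analysed here, so the second infection and the second knockdown cannot be told apart. Whether the replicates were separate cultures was not given, so p-values measure the spread between these libraries, which may be technical.

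Totals ranged from 15926561 to 24272298 counts per library. Values below are CPM, a gene's count as a share of its library's total, scaled with TMM within a line. Fold changes are on the log2 scale with their standard error (SE). KDM5C had 69.5 ± 0.537 CPM in ACHN shNC (SD, n = 3), 42.1 ± 1.22 in shKDM5C and 40.1 ± 0.514 in double-knockdown cells, log2 fold changes of -0.73 and -0.80. YY1 fell by 0.88 on the log2 scale in ACHN shYY1 cells and by 0.51 in ACHN double-knockdown cells. KDM5C rose in shYY1 cells of both lines, by 0.34 in ACHN and 0.35 in HK2. The depletion was deeper in HK2, with log2 fold changes of -1.74 for KDM5C in shKDM5C cells (adjusted p = 0.0184; -1.51 without replicate 1), -1.70 for YY1 in shYY1 cells, and -1.49 and -1.49 for KDM5C and YY1 in double-knockdown cells. One library stood apart: HK2 shKDM5C replicate 1 had a mean correlation of 0.949 with its group (other groups, 0.986 to 0.992) and 11.8% mitochondrial counts. Counts of genes called that rest on it are given with and without it. Of marker genes, all 6 renal epithelial ones were at 1 CPM or more in every group and LRP2, CUBN, ANPEP, AQP1 and SLC34A1 of the 6 proximal tubule ones were under 1 CPM in every group, as was CA9, a defining gene of clear cell carcinoma, in all ACHN groups. Summed endothelial and leukocyte markers stayed at or under 1.75 CPM. The 4 fibroblast markers summed to 575 to 625 CPM in ACHN shNC, 72.7 to 77.0 in shKDM5C, 186 to 193.5 in shYY1 and 134 to 150.4 CPM in double-knockdown libraries, with COL1A2 and DCN under 1 CPM in all 4 ACHN groups, and to 16.1 to 37.9 CPM over the HK2 libraries. The renal epithelial markers summed to 2168 to 2207 CPM in ACHN shNC, 2488 to 2571 in shKDM5C, 2584 to 2670 in shYY1 and 1507 to 1665 in double-knockdown libraries. In HK2 they summed to 2835 to 2953 CPM in shNC, 2399 to 2984 in shKDM5C, 1919 to 2059 in shYY1 and 1505 to 1630 in double-knockdown libraries. The sums hide opposite moves. In ACHN shKDM5C cells the KRT8 mean rose from 1388 to 1937 CPM, while those of PAX2, PAX8, LHX1, KRT18 and CDH16 fell. In double-knockdown cells PAX8 rose in ACHN (535 to 708 CPM) and the other markers fell. In those of HK2, PAX8 (257 to 308 CPM) and LHX1 (109 to 152 CPM) rose and the others fell. CA9 with NDUFA4L2 summed to 1.82 to 1.90 CPM in HK2 shNC and 8.43 to 12.3 CPM in HK2 double-knockdown libraries. The part of these shifts in the results was not tested.

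The promoters of 27 of the 32 genes were found in the RefSeq table of GRCh38.p14, as 37 windows of 300 bases, from 250 bases before to 50 bases after a start site. ACAT2, FDFT1, SQLE, ABCG1 and FASN had no entry. The CCAAT box, the NF-Y site that accompanies SREBP sites in many sterol genes, was searched as CCAAT on both strands and was present in 24 of the 37 windows (64.9%), against 34.6% of all 35116 windows. The other motifs were also searched on both strands. The sterol regulatory element was searched as TCACNCCAC, and an exact match was in 1 of the 37 windows and in 1.13% of all windows. Sites with other letters, or outside the windows, would not be found, so a gene without a match may still have one. A YY1 motif, AANATGGC, was in 3 of the 37 (8.11%, against 6.58%), those of SREBF2, INSIG2 and EBP, and the E-box CACGTG was in 6 of the 37 (16.2%, against 7.26%). By gene, the CCAAT box was in 20 of the 27 and the E-box in 5. Windows of SC5D overlap and hold the same E-box and CCAAT box, and those of ACLY overlap and hold the same CCAAT boxes, so these sites were counted more than once. These counts describe letters in the windows and do not show binding. The windows of 4 genes that the results turn on are shown 5′ to 3′ on the gene's strand, with matches to these motifs in capitals: the gene of SREBP-2, which holds the sterol element, the CCAAT box in reverse and the YY1 motif, then the genes with the largest falls in each line, and the efflux transporter that rose.
SREBF2, chr22:41832855-41833154, plus strand: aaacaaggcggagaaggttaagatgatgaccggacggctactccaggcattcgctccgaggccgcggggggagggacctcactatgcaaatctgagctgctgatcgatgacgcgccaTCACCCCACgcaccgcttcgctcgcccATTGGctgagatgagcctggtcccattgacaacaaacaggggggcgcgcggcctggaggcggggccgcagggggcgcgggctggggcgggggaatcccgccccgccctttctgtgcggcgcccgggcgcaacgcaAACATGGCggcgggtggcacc
HMGCS1, chr5:43313363-43313662, minus strand: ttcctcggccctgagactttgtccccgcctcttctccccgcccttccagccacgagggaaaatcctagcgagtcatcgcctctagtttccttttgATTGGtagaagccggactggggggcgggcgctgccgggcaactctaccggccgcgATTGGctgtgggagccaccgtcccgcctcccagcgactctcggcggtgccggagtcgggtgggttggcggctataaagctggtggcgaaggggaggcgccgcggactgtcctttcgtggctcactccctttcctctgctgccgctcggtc
SCD, chr10:100346983-100347282, plus strand: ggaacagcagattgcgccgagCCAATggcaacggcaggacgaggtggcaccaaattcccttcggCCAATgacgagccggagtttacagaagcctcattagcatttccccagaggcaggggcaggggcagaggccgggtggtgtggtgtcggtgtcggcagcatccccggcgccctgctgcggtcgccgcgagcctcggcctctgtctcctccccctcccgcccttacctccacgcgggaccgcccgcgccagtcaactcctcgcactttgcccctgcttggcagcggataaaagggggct
ABCA1, chr9:104928106-104928405, minus strand: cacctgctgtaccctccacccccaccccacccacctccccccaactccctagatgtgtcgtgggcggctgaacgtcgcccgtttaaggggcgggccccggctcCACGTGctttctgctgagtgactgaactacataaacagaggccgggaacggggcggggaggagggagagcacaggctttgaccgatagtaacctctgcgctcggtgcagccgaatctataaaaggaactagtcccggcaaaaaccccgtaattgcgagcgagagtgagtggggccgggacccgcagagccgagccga
In SREBF2 the sterol element spans bases -133 to -125 and the YY1 motif bases 30 to 37 from the start. HMGCS1 has 2 windows in the table, and the one printed has reversed CCAAT boxes at -155 to -151 and -100 to -96. SCD has forward CCAAT boxes at -229 to -225 and -186 to -182. ABCA1 has the E-box at -147 to -142.

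The 32 genes together took 0.596 to 0.611% of all counts in ACHN shNC libraries, 0.498 to 0.502% in shKDM5C, 0.422 to 0.438% in shYY1 and 0.326 to 0.337% in double-knockdown libraries. In HK2 they took 0.907 to 0.927% in shNC, 0.752 to 0.818% in shKDM5C, 0.776 to 0.816% in shYY1 and 0.940 to 0.956% in double-knockdown libraries. The share thus descended in the order shNC, shKDM5C, shYY1 and double knockdown in ACHN with no overlap between groups, while in HK2 it was lowest in the single knockdowns and highest in the double knockdown. Each difference from shNC had p = 0.1 in a two-sided exact permutation test, the smallest p that 3 libraries against 3 allow. Without SCD, FASN and ACLY, the genes with most counts per length, the share ran from 0.289 to 0.296% in ACHN shNC and from 0.176 to 0.182% in ACHN double-knockdown libraries, and from 0.421 to 0.433% in HK2 shNC and 0.506 to 0.508% in HK2 double-knockdown libraries. Both shares include the efflux gene ABCA1, on which the HK2 double-knockdown rise rested. It had 5901, 5556 and 6043 counts in HK2 shNC and 18080, 18140 and 19582 in HK2 double-knockdown libraries. With ABCA1 left out of the 32 genes, the HK2 double-knockdown share was below that of HK2 shNC. In bulk samples, fewer cells with a transcript and less transcript per cell cannot be told apart.

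**Figure D1:**
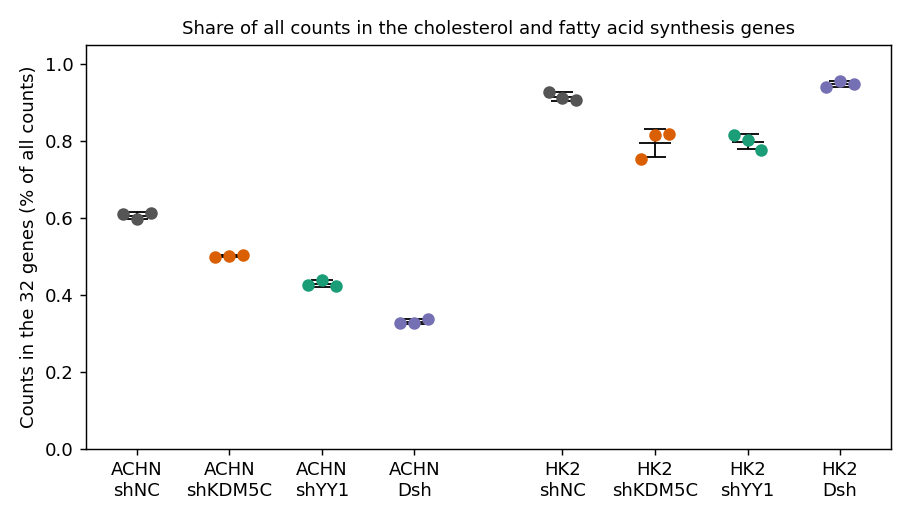
Percent of all counts that fell in the 32 genes (vertical axis), by line and group; points are libraries, bars the mean and SD of 3. ACHN groups descend from a mean of 0.606% in shNC to 0.330% in Dsh, and HK2 Dsh, at 0.948%, lies above HK2 shNC, at 0.915%, with ABCA1 counted.

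Per kilobase of exon, SCD, the desaturase that makes oleate, had the highest level in shNC cells of both lines, 279.9 ± 5.13 CPM per kb in ACHN and 552 ± 0.574 in HK2 (SD, n = 3). FASN, fatty acid synthase, followed with 114 ± 3.97 in ACHN and 139.6 ± 5.6 in HK2, and ACLY, which makes cytosolic acetyl-CoA from citrate, with 106 ± 0.731 and 102 ± 1.8. Further down the ACHN order, FDFT1 (35.8 ± 0.716) and SREBF2 (35.5 ± 0.571) lay within their spread of each other, as did INSIG1 (43.6 ± 1.2) and SREBF1 (43.6 ± 2.67) in HK2. ABCG1, a cholesterol exporter, had 0 to 3 counts in a library, 8 in all 24, and failed the filter on low counts in every comparison, so that 31 of the 32 genes were tested. A count of 0 allows up to 3 counts.

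Before any knockdown, 17 of the 31 genes tested were lower in ACHN shNC than in HK2 shNC and 8 were higher at an adjusted p under 0.05, where 38% of all genes tested were lower and 38.6% higher. The median log2 difference was -0.26 over the 31 genes and 0.02 over all genes. ABCA1, which passes cholesterol to apolipoprotein A-I, was furthest apart, with 63.6, 65.5 and 63.1 CPM in ACHN and 328, 311 and 315 CPM in HK2, a log2 difference of -2.27 (SE 0.0398, adjusted p = 6.59e-27). EBP, a sterol isomerase, and NSDHL, a sterol dehydrogenase, were also lower in ACHN, at -1.77 and -1.69. The log2 differences came from a joint scaling of both shNC groups, while the CPM values were scaled within each line. The farnesyl diphosphate synthase FDPS (1.00), the phosphomevalonate kinase PMVK (1.33), the desaturase FADS2 (1.25) and INSIG2 (1.01) were higher in ACHN. With 1 line of each kind, a difference between cancer and tubule cells and one between these lines cannot be told apart.

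Each knockdown was then compared with shNC of its own line, which asks how far loss of KDM5C, of YY1 and of both alters transcript levels. The 3 comparisons of a line share their shNC libraries. In ACHN shKDM5C cells, 24 of the 31 genes were lower and 4 higher, with a median log2 fold change of -0.18 (all genes, -0.01). Of all genes tested, 27.7% were lower and 28.9% higher there. In ACHN shYY1 cells 23 were lower and 2 higher, with a median of -0.35, against 24.5% and 24.2% of all genes. In ACHN double-knockdown cells 27 were lower and 1, SCAP, was higher, with a median of -0.81, against 32% and 30.7% of all genes. The sizes set the ACHN groups apart: 3 genes passed a change of at least 1.5-fold in shKDM5C cells (18.2% of all genes did), 4 in shYY1 cells (13.9%) and 22, all downward, in double-knockdown cells (31.4%).

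In HK2 the genes moved mostly down after YY1 knockdown and in both directions in the double knockdown. After YY1 knockdown 19 were lower and 1, ABCA1, was higher, with a median of -0.21, against 14.7% and 14.3% of all genes, and none passed 1.5-fold (7.6% of all genes did). In HK2 double-knockdown cells 11 were lower and 7 higher, with a median of 0.01, against 24.3% and 25.5% of all genes, and 6 passed 1.5-fold, 2 lower and 4 higher (20.6% of all genes did). In HK2 shKDM5C cells edgeR called 0 of the 31 genes with all libraries. Of all genes, 0.656% were called lower there, 0.668% higher and 1.32% past 1.5-fold. In the same edgeR fit 8 of the 31 had an unadjusted p under 0.05, as had 2478 of all 16161 genes tested. DESeq2 called 4 lower and 1 higher (2.35% and 2.64% of all genes). Without HK2 shKDM5C replicate 1, edgeR called 15 lower and 3 higher, with a median of -0.16, and 1 past 1.5-fold, where 10.9% of all genes were lower, 11.5% higher and 6.45% past 1.5-fold. When the spread was taken from all 4 HK2 groups, that library among them, the genes called lower numbered 2 in shYY1 and 4 in double-knockdown cells, and the shares of all genes called lower were 3.26% and 11.2%.

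**Figure D2:**
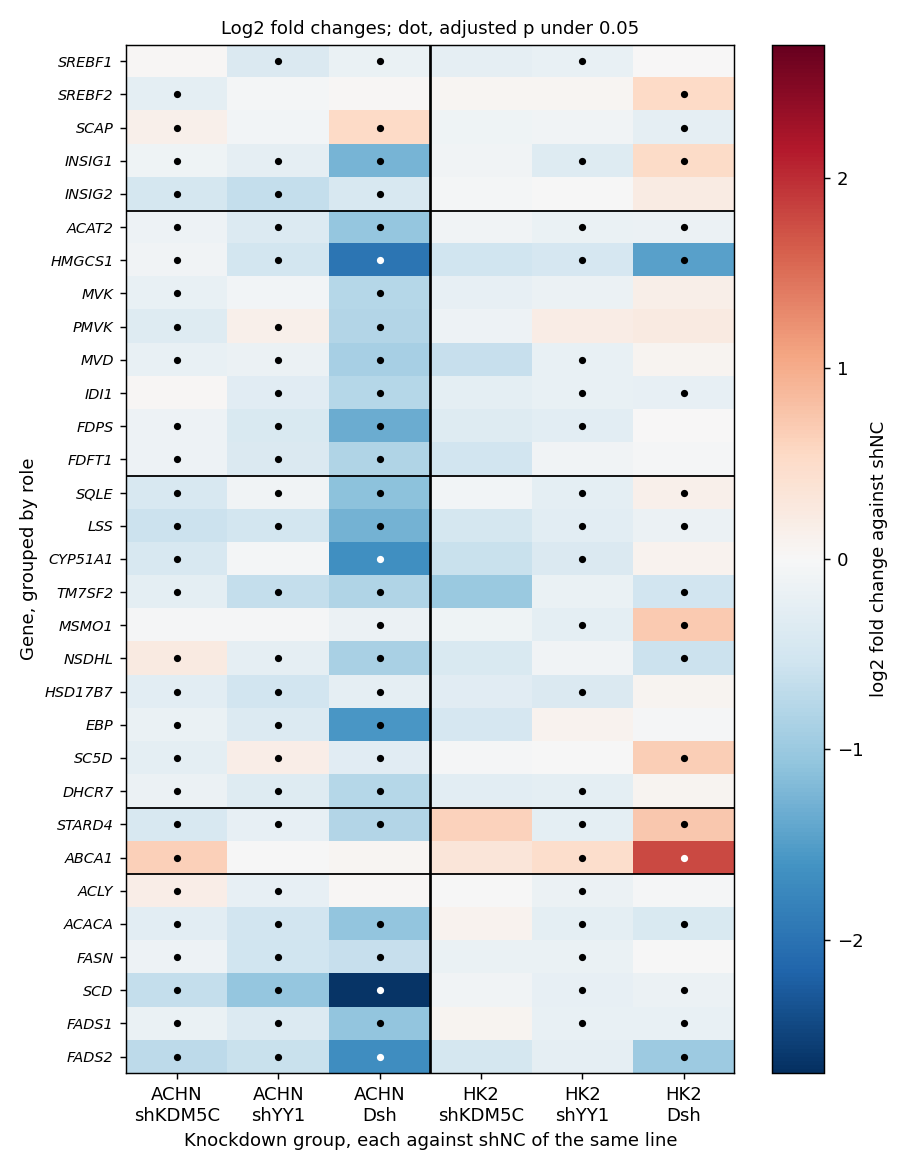
Log2 fold change against shNC of the same line (colour) for the 31 genes tested (rows, grouped by role) in 6 knockdown groups (columns); a dot marks an adjusted p under 0.05. The ACHN Dsh column is blue for 27 genes with a dot, down to -2.66 for SCD, and the HK2 Dsh column holds 11 lower and 7 higher genes, up to 1.78 for ABCA1.

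The first role was sterol sensing. SREBF1, which encodes the SREBP form that favours fatty acid genes, had 216, 205 and 206 CPM in ACHN shNC libraries, 214, 213 and 216 in shKDM5C, 161, 166 and 159 in shYY1 and 179.8, 180.3 and 191 in double-knockdown libraries. It was below shNC in every shYY1 and double-knockdown library, with log2 fold changes of -0.39 (SE 0.0326, adjusted p = 4.78e-12) and -0.19 (SE 0.0452, adjusted p = 0.0014). In HK2 it had 372, 329 and 349 CPM in shNC, 179, 352 and 353 in shKDM5C, 305, 314 and 289 in shYY1 and 353, 362 and 338 in double-knockdown libraries. The low first value of shKDM5C was the library that stood apart, and only the shYY1 group passed the test, at -0.21 (SE 0.0509, adjusted p = 0.00321).

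SREBF2 (ENSG00000198911, chromosome 22 from 41833079 to 41907308), whose SREBP form favours cholesterol genes, had 273, 266 and 265 CPM in ACHN shNC, 221, 219 and 229.5 in shKDM5C, 262, 272 and 256 in shYY1 and 274, 259 and 287 in double-knockdown libraries. Only shKDM5C lay below shNC without overlap, at -0.27 (SE 0.032, adjusted p = 6.86e-08); the ACHN double knockdown gave 0.03 (SE 0.0459, adjusted p = 0.647), with groups that overlapped. HK2 libraries had 384, 376 and 384 CPM in shNC, 345, 417 and 415 in shKDM5C, 407, 403 and 380.0 in shYY1 and 561, 535 and 552 in double-knockdown cells. In HK2 shKDM5C cells SREBF2 gave 0.04, adjusted p = 0.854 with all libraries and was higher without replicate 1 at 0.12 (SE 0.0373, adjusted p = 0.0187). All 3 HK2 double-knockdown values exceeded every other HK2 value, with a log2 fold change of 0.53 (SE 0.0392, adjusted p = 8.19e-13). An antisense gene, SREBF2-AS1, shares 280 exon bases with SREBF2, and the counting did not use strand; it had 3040 counts over all libraries against 149316 for SREBF2.

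INSIG1 (ENSG00000186480, chromosome 7 from 155297776 to 155310235), itself a target of SREBP and a brake on it, moved in opposite directions in the double-knockdown cells of the lines. It had 162, 156 and 159 CPM in ACHN shNC, 139.9, 151 and 151 in shKDM5C, 131, 142 and 133 in shYY1 and 71.7, 61.5 and 66.99 in double-knockdown libraries. The double-knockdown level was less than that of any other ACHN library, a change of -1.25 (SE 0.0539, adjusted p = 4.36e-13). The shKDM5C call (-0.11) was lost without shNC replicate 1 or shKDM5C replicate 1. In HK2 the values were 164, 157 and 156 CPM in shNC, 157, 143 and 148 in shKDM5C, 115, 123 and 139 in shYY1 and 226, 229.8 and 226 in double-knockdown libraries. Here shYY1 was lower at -0.34 (SE 0.0607, adjusted p = 0.000173) and the double knockdown was above all other libraries at 0.52 (SE 0.0448, adjusted p = 2.79e-11). SCAP, the escort of SREBP, showed the mirror image, higher in ACHN double-knockdown cells (0.53, from a mean of 69.4 to 100.2 CPM) and lower in those of HK2 (-0.23, from 104 to 88.02 CPM).

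INSIG2, the paralog of INSIG1, was less abundant. Its ACHN values were 21.3, 23.4 and 22.7 CPM in shNC, 14.6, 17.9 and 16.2 in shKDM5C, 15.2, 15.7 and 12.6 in shYY1 and 19.4, 16.5 and 14.4 in double-knockdown libraries. All knockdown groups lay below shNC, with log2 fold changes of -0.48, -0.65 and -0.43, and the mean was 14.5 CPM in shYY1 and 16.8 CPM in double-knockdown cells. In HK2 it had 11.02, 12.8 and 10.5 CPM in shNC, 9.35, 11.8 and 11.9 in shKDM5C, 10.3, 10.6 and 12.97 in shYY1 and 10.8, 12.97 and 15.9 in double-knockdown libraries, and no HK2 comparison passed the test.

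All 8 mevalonate enzymes up to squalene were lower in ACHN double-knockdown cells, each past 1.5-fold, with log2 fold changes from -1.97 to -0.76. In shKDM5C cells 7 of the 8 were lower and in shYY1 cells 6 were lower and 1, PMVK, was higher, none of them past 1.5-fold. HMGCS1 (ENSG00000112972, chromosome 5 from 43289395 to 43313512), the cytosolic HMG-CoA synthase that commits acetoacetyl-CoA to the pathway, changed most. It had 111, 113 and 117 CPM in ACHN shNC, 108, 107 and 108 in shKDM5C, 78.3, 87.02 and 81.9 in shYY1 and 29.9, 29.01 and 28.3 in double-knockdown libraries. The groups descended without overlap, shKDM5C only slightly (-0.09, SE 0.0374, adjusted p = 0.045), shYY1 further (-0.49, SE 0.0403, adjusted p = 2.85e-12) and the double knockdown to a 3.92-fold lower level (-1.97, SE 0.0542, adjusted p = 6.24e-16). The shKDM5C call held in 1 of the 6 fits that left out a library, that without shNC replicate 1.

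HMGCS1 was also the mevalonate gene that fell most in HK2. It had 178, 186 and 175 CPM in HK2 shNC, 128, 121 and 121 in shKDM5C, 128, 128 and 135 in shYY1 and 64.5, 61.01 and 67.9 in double-knockdown libraries. Every knockdown library was below every shNC library. The log2 fold change was -0.46 (SE 0.0509, adjusted p = 4.01e-07) in shYY1 and -1.47 (SE 0.053, adjusted p = 2.65e-20) in double-knockdown cells; that of shKDM5C missed the threshold with all libraries, at -0.54 (SE 0.104, adjusted p = 0.0667), and passed it without replicate 1, at -0.57 (SE 0.0487, adjusted p = 2.41e-09). A gene on the other strand, ENSG00000261604, shares 703 exon bases with HMGCS1 and had 152 counts in all.

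The other mevalonate genes parted between the lines. FDPS fell from 199 to 79.3 CPM in ACHN double-knockdown cells (-1.33) and stood at 102 and 103 CPM in HK2 shNC and double-knockdown cells (0.01, adjusted p = 0.856). The squalene synthase FDFT1 fell by 0.81 on the log2 scale in ACHN double-knockdown cells and gave -0.03, adjusted p = 0.645 in those of HK2, where it was nonetheless lower after KDM5C knockdown without replicate 1 (-0.49; -0.51 with it, not called). ACAT2, the cytosolic thiolase of the first step, was lower in both, at -1.04 in ACHN and -0.16 in HK2, and so was the isomerase IDI1 (-0.77 and -0.23). The kinases MVK and PMVK and the decarboxylase MVD fell in ACHN double-knockdown cells (-0.76, -0.79 and -0.90) and did not pass the test in HK2 (0.15, 0.25 and 0.07). Exons of ACAT2 overlap those of ENSG00000112096 on the other strand over 43% of their bases, and with these counting options pairs lying in both genes were not counted, so the level of ACAT2 was understated.

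In the branch from squalene to cholesterol, all 10 genes were lower in ACHN double-knockdown cells, 7 of them past 1.5-fold. Of all genes, 32% were lower there and 31.4% passed 1.5-fold in either direction. In HK2 double-knockdown cells 3 of the 10 were lower (LSS, TM7SF2 and NSDHL) and 3 higher (SQLE, MSMO1 and SC5D), near the 24.3% and 25.5% of all genes. SQLE, the squalene epoxidase and a rate-limiting step, had 118, 123 and 129.95 CPM in ACHN shNC, 90.6, 91.1 and 92.8 in shKDM5C, 116, 120.3 and 116 in shYY1 and 57.2, 56.6 and 58.2 in double-knockdown libraries. shKDM5C and the double knockdown were below every shNC library, at -0.44 (SE 0.0407, adjusted p = 9.93e-10) and -1.11 (SE 0.0514, adjusted p = 1.22e-12). The shYY1 libraries overlapped shNC and were called lower at -0.09 (SE 0.0377, adjusted p = 0.0424), a call lost without shNC replicate 2 or 3 or shYY1 replicate 1 or 3. In HK2, SQLE had 279.8, 297 and 274 CPM in shNC, 299, 253 and 257 in shKDM5C, 229, 233 and 243 in shYY1 and 313, 295 and 318 in double-knockdown libraries. Its rise there was small and overlapped shNC (0.13, SE 0.0445, adjusted p = 0.0168), and the call was lost without shNC replicate 1 or 3 or double-knockdown replicate 1, while shYY1 was lower at -0.27 (SE 0.0491, adjusted p = 0.000221). In HK2 shKDM5C cells SQLE gave -0.07, adjusted p = 0.771 with all libraries and -0.15 (SE 0.044, adjusted p = 0.0116) without replicate 1.

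CYP51A1, the lanosterol demethylase, had 23.8, 23.1 and 24.6 CPM in ACHN shNC, 16.3, 17.1 and 19.5 in shKDM5C, 21.6, 22.4 and 25.7 in shYY1 and 7.902, 9.27 and 5.81 in double-knockdown libraries. shKDM5C was below shNC at -0.44 (SE 0.0774, adjusted p = 2.64e-05), shYY1 overlapped it, and the double knockdown was below all the rest at -1.66 (SE 0.125, adjusted p = 1.29e-09). HK2 libraries had 20.04, 17.98 and 16.6 CPM in shNC, 5.93, 15.8 and 14.1 in shKDM5C, 14.1, 14.3 and 12.9 in shYY1 and 17.6, 19.04 and 21.4 in double-knockdown libraries. Only HK2 shYY1 passed, at -0.40 (SE 0.113, adjusted p = 0.00982), and not without shNC replicate 1. LRRD1 covers 78.8% of the exon bases of CYP51A1 on the same strand, and pairs lying in both were not counted, so its CPM is no measure of its level against other genes.

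EBP fell from 47.9 to 16.1 CPM in ACHN double-knockdown cells (-1.57) and the lanosterol synthase LSS from 156 to 64.9 CPM (-1.27). LSS was the gene of this branch with the largest drop after KDM5C knockdown alone in ACHN, by 0.58 on the log2 scale. DHCR7, a reductase that yields cholesterol, fell by 0.77 in ACHN double-knockdown cells and gave 0.07, adjusted p = 0.194 in those of HK2. MSMO1, a methylsterol oxidase, rose in HK2 double-knockdown cells from 134 to 217 CPM (0.71) and the desaturase SC5D from 45.4 to 71.3 CPM (0.66), and in ACHN they fell by 0.16 and 0.30. The ACHN call of MSMO1 was lost without shNC replicate 3 or double-knockdown replicate 3. NSDHL and the reductase TM7SF2 were lower in double-knockdown cells of both lines, NSDHL at -0.88 and -0.58 and TM7SF2 at -0.81 and -0.51. HSD17B7, a keto reductase of the branch, was lower in ACHN shYY1 (-0.53) and HK2 shYY1 cells (-0.38) and gave -0.23 and 0.07 in the double knockdowns, called in ACHN but not without shNC replicate 1 or 3 or double-knockdown replicate 3.

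Of the transport genes, ABCA1 (ENSG00000165029, chromosome 9 from 104781002 to 104928237) was the one with the largest rise. It had 328, 311 and 315 CPM in HK2 shNC, 501, 343 and 351 in shKDM5C, 464, 439.9 and 426 in shYY1 and 1076, 1069 and 1125 in double-knockdown libraries. Every knockdown library exceeded every shNC library, and the double-knockdown values were all more than those of the single knockdowns. The log2 fold change was 0.48 (SE 0.0471, adjusted p = 7.61e-08) in shYY1 and 1.78 (SE 0.0394, adjusted p = 2.59e-25) in double-knockdown cells, a 3.44-fold increase; in shKDM5C it was 0.33, adjusted p = 0.388 with all libraries and 0.13 (SE 0.0402, adjusted p = 0.0251) without replicate 1. In ACHN the gene had 63.6, 65.5 and 63.1 CPM in shNC, 100.1, 97.3 and 106 in shKDM5C, 63.7, 63.00 and 66.2 in shYY1 and 61.5, 72.7 and 66.1 in double-knockdown libraries. Only ACHN shKDM5C stood above shNC (0.65, SE 0.0432, adjusted p = 2.12e-12), and the ACHN double knockdown, which also lost KDM5C, overlapped shNC (0.06, SE 0.0613, adjusted p = 0.445).

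STARD4, a sterol carrier of the cytosol and a known SREBP target, had 95.9, 92.00 and 93.3 CPM in ACHN shNC, 69.1, 66.9 and 73.6 in shKDM5C, 77.9, 82.3 and 83.3 in shYY1 and 55.1, 56.4 and 51.98 in double-knockdown libraries. All ACHN knockdown libraries were below shNC, the double knockdown the lowest at -0.79 (SE 0.0524, adjusted p = 2.31e-10). The HK2 levels were 94.9, 99.96 and 86.4 CPM in shNC, 171, 127 and 132 in shKDM5C, 67.2, 84.5 and 80.8 in shYY1 and 144, 164 and 154 in double-knockdown libraries. shYY1 was lower (-0.27, adjusted p = 0.00715, not called without shNC replicate 2) and the double knockdown higher (0.72, SE 0.0574, adjusted p = 4.62e-12), and shKDM5C, above shNC in all 3 libraries, gave 0.62, adjusted p = 0.139 with all libraries and passed without replicate 1 (0.46, SE 0.0586, adjusted p = 1.55e-06).

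**Figure D3:**
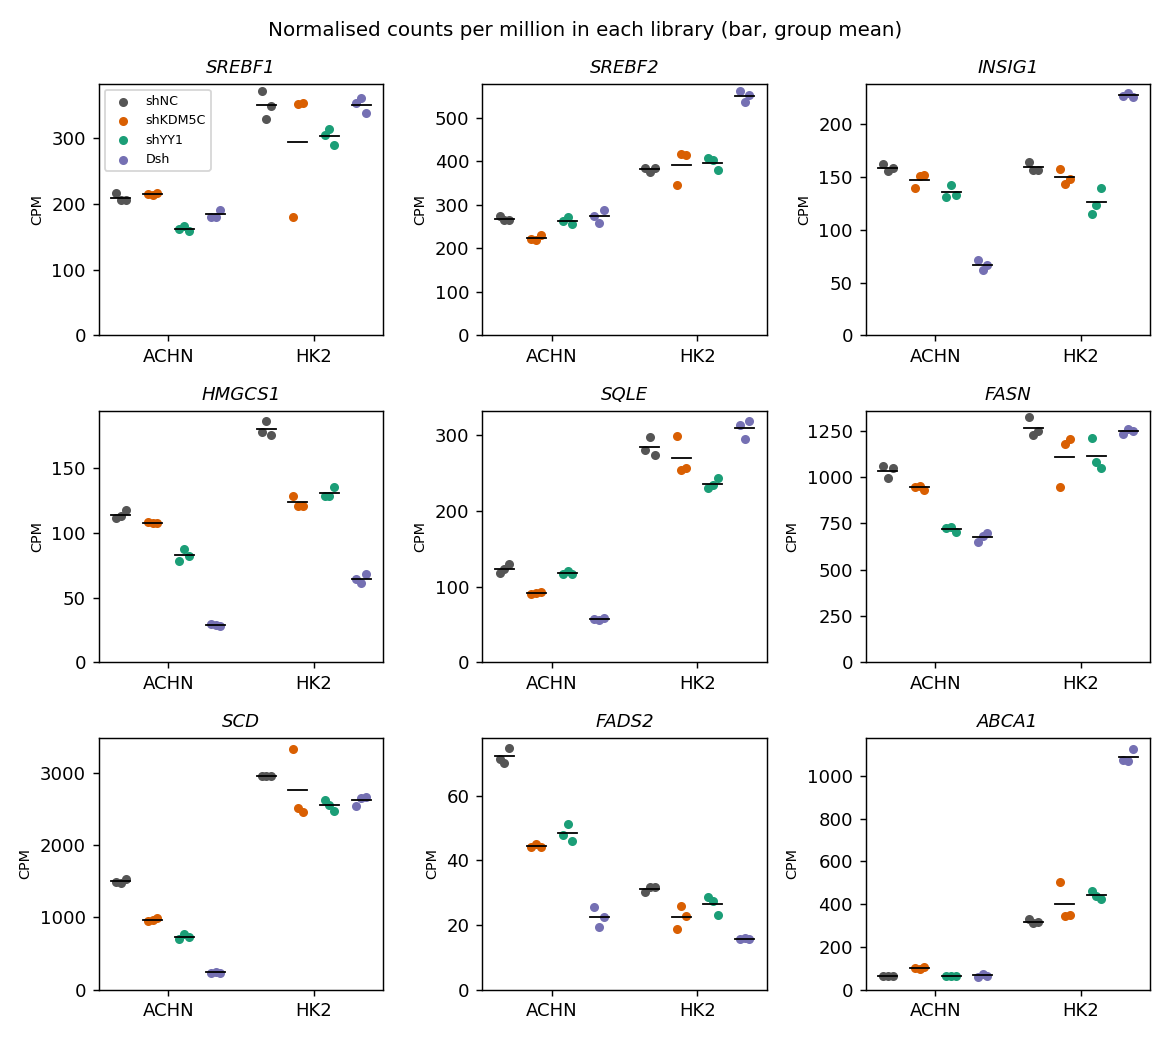
CPM (vertical axis, from 0) of 9 genes in each library, by line and group; points are libraries and bars group means. SCD and HMGCS1 descend to the double knockdown in ACHN, INSIG1 drops in ACHN Dsh and rises in HK2 Dsh, and ABCA1 rises to a mean of 1089.9 CPM in HK2 Dsh.

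The fatty acid genes held the largest fall. SCD (ENSG00000099194, chromosome 10 from 100347124 to 100364834) had 1491, 1479.5 and 1532 CPM in ACHN shNC, 945, 964 and 994 in shKDM5C, 703, 774 and 730.3 in shYY1 and 232, 246 and 237 in double-knockdown libraries. The 4 groups did not overlap. The log2 fold change was -0.64 (SE 0.0269, adjusted p = 2.26e-16) in shKDM5C, -1.05 (SE 0.028, adjusted p = 7.29e-26) in shYY1 and -2.66 (SE 0.0434, adjusted p = 7.95e-19) in double-knockdown cells, a 6.31-fold lower level. In HK2 it had 2957, 2963 and 2958 CPM in shNC, 3333, 2514 and 2461 in shKDM5C, 2623, 2557 and 2478 in shYY1 and 2550.1, 2659 and 2667 in double-knockdown libraries. The HK2 shYY1 and double-knockdown libraries were below shNC by little, -0.21 (SE 0.036, adjusted p = 9.42e-05) and -0.17 (SE 0.032, adjusted p = 6.43e-05), and replicate 1 of shKDM5C was above shNC while the other two were below; with it the log2 value was -0.09, adjusted p = 0.749, and without it the change was -0.25 (SE 0.0263, adjusted p = 8.46e-08).

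FASN had 1059, 992 and 1050.3 CPM in ACHN shNC, 947, 951 and 932 in shKDM5C, 725, 729.7 and 703 in shYY1 and 649.8, 680.0 and 699 in double-knockdown libraries. It was lower in all 3 knockdowns, at -0.14, -0.54 and -0.61 (SE 0.0432, adjusted p = 4.88e-10). In HK2 it had 1323, 1225 and 1249.9 CPM in shNC, 947, 1178 and 1205 in shKDM5C, 1211, 1083 and 1047 in shYY1 and 1233, 1259 and 1246 in double-knockdown libraries, of which only shYY1 passed, at -0.18 (SE 0.049, adjusted p = 0.00638), and not without shNC replicate 1. ACACA, which makes malonyl-CoA, was lower in double-knockdown cells of both lines, from 284 to 135 CPM in ACHN (-1.07) and from 249 to 187 CPM in HK2 (-0.41). ACLY, the first enzyme, did not follow: it was higher in ACHN shKDM5C (0.18), lower in both shYY1 groups (-0.21 and -0.16) and gave 0.03, adjusted p = 0.601 and -0.04, adjusted p = 0.424 in the ACHN and HK2 double knockdowns.

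FADS2, the first desaturase of polyunsaturated fatty acids, had 71.4, 70.2 and 74.9 CPM in ACHN shNC, 44.2, 45.1 and 44.2 in shKDM5C, 47.96, 51.2 and 46.1 in shYY1 and 25.4, 19.3 and 22.6 in double-knockdown libraries. The single knockdowns were each below shNC and the double knockdown below both, with log2 fold changes of -0.70 (SE 0.047, adjusted p = 2.12e-12), -0.59 (SE 0.0488, adjusted p = 2.38e-12) and -1.68 (SE 0.0771, adjusted p = 1.07e-12). The HK2 values were 30.3, 31.8 and 31.7 CPM in shNC, 18.6, 25.8 and 22.9 in shKDM5C, 28.6, 27.5 and 23.2 in shYY1 and 15.5, 15.9 and 15.8 in double-knockdown libraries. The HK2 double knockdown was again the lowest group, at -0.98 (SE 0.0924, adjusted p = 1.96e-10), and shKDM5C gave -0.47, adjusted p = 0.229 with all libraries and -0.36 (SE 0.0928, adjusted p = 0.00577) without replicate 1. FADS1, its neighbour, fell by 1.07 on the log2 scale in ACHN and by 0.21 in HK2 double-knockdown cells. FADS1 and FADS2 share 490 exon bases on opposite strands, which is 4.79% of FADS1 and 4.44% of FADS2, so pairs there could not be told apart.

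The interaction, fitted over the 12 libraries of a line, asks how far the double knockdown lies from the added log2 changes of shKDM5C and shYY1. In ACHN, 21 of the 31 genes had an interaction below 0 and 5 above, at an adjusted p under 0.05, where 28.8% of all genes were below and 26.8% above, and the median was -0.41 (all genes, 0.01). All 8 mevalonate genes were among the 21. HMGCS1 was the furthest, with single effects of -0.09 and -0.49 against -1.97 in the double knockdown and an interaction of -1.42 (SE 0.0667, adjusted p = 2.75e-15). CYP51A1 (-1.19), EBP (-1.05), SCD (-0.99), NSDHL (-0.92) and INSIG1 (-0.91) followed. FASN, ACLY, TM7SF2, MSMO1 and STARD4 did not pass, with values from -0.15 to 0.08. The 5 above 0 were SREBF1, SREBF2, SCAP, INSIG2 and HSD17B7, from 0.14 to 0.68, which are 4 of the 5 sterol sensing genes and a reductase. Of these, SREBF1 held in 7 of the 12 fits that left out a library. ABCA1 was below 0 (-0.60), having risen in shKDM5C alone.

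In HK2 the interactions lay mostly on the other side: 9 genes were above 0 and 1 below, where 5.21% of all genes were above and 4.4% below, and the median was 0.43 (all genes, -0.02). Those above were SREBF2, INSIG1, FDFT1, SQLE, MSMO1, HSD17B7, SC5D, DHCR7 and ABCA1, with MSMO1 at 1.08 (SE 0.128, adjusted p = 0.000307), ABCA1 at 0.97 (SE 0.176, adjusted p = 0.00434) and INSIG1 at 0.95 (SE 0.124, adjusted p = 0.000634). Without shKDM5C replicate 1 these values were 1.08, 1.19 and 1.00. HMGCS1 was the one below, at -0.47 (SE 0.113, adjusted p = 0.0201), and was called in 7 of the 12 fits that left out a library. The call was lost without shNC replicate 1 or 3, shYY1 replicate 3, or double-knockdown replicate 1 or 2. The calls of SQLE, SREBF2 and DHCR7 held in 1, 3 and 4 of the 12 fits, in each case with shKDM5C replicate 1 left out among them. Without HK2 shKDM5C replicate 1, 20 genes were above and 2, HMGCS1 and FADS2, below, with a median of 0.31, where 15% of all genes were above and 13.7% below. The mean of the double knockdown was the lowest of the 4 groups for 24 of the 31 genes in ACHN and for 6 in HK2, and the highest for 2 in ACHN and 16 in HK2. These ranks were not counted over all genes, so whether they are particular to the 31 genes cannot be told.

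**Figure D4:**
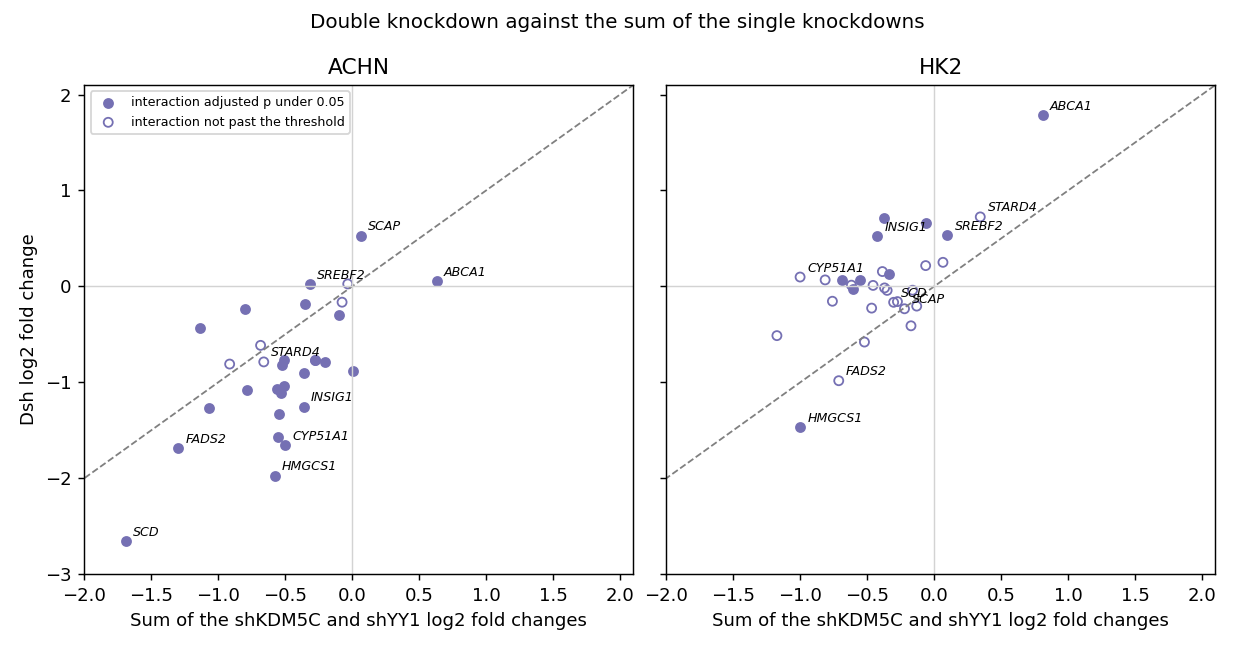
Log2 fold change of the double knockdown (vertical) against the sum of the shKDM5C and shYY1 log2 fold changes (horizontal) for 31 genes in each line; filled points have an interaction adjusted p under 0.05 and the dashed line marks equality. In ACHN most points lie below the line (HMGCS1 at -1.97), in HK2 most lie above it (ABCA1 at 1.78).

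The effects were also compared between the lines, as ACHN minus HK2. The YY1 knockdown effect differed for 16 of the 31 genes, 13 of them lower in ACHN, where 33.1% of all genes differed. SCD had the widest gap (-0.82), then INSIG2 (-0.63) and ABCA1 (-0.48), while SQLE, CYP51A1 and MSMO1 were the 3 with the higher value in ACHN. The KDM5C knockdown effect differed for 4 genes with all libraries, where 11.9% of all genes differed: STARD4 (-1.03) and SCD (-0.54) were lower in ACHN, HMGCS1 (0.46) and FDFT1 (0.38) higher. Without HK2 shKDM5C replicate 1 it differed for 17, where 33.9% of all genes differed, and the 4 values were -0.89, -0.38, 0.49 and 0.35; among the others, ABCA1 then differed at 0.53. Without ACHN shNC replicate 1 or 2, ACHN shKDM5C replicate 1 or 2, or HK2 shNC replicate 3, it differed for 2. KDM5C itself was less depleted in ACHN shKDM5C cells, by 1.02 (0.79 without HK2 shKDM5C replicate 1), and YY1 in ACHN shYY1 cells, by 0.84.

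The double-knockdown effect differed for 28 of the 31 genes, 27 of them lower in ACHN, where 46% of all genes differed, with a median of -0.85 (all genes, 0.01). SCD again had the widest gap (-2.47, SE 0.0513, adjusted p = 9.03e-25), followed by INSIG1 (-1.75), CYP51A1 (-1.74), ABCA1 (-1.71), EBP (-1.51) and STARD4 (-1.49). SCAP was the exception (0.78). TM7SF2, HSD17B7 and ACLY did not pass, at -0.28, -0.28 and 0.09. HMGCS1, which fell in both, differed by -0.48. KDM5C and YY1 were less depleted in ACHN than in HK2 double-knockdown cells, by 0.71 and 0.99 on the log2 scale, and the part of these gaps in depletion in the differences was not tested.

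A list of 30 other genes of the pathways, in SREBP processing and sterol degradation signals, sterol branches and lipogenesis, gave the surroundings. In ACHN double-knockdown cells 15 of the 30 were lower (50%) and 7 higher (23.3%), against 32% and 30.7% of all genes. Their median was -0.21 where the 31 genes had -0.81. ACSS2, which makes acetyl-CoA from acetate, fell from 56.7 to 15.5 CPM in ACHN double-knockdown cells (-1.87) and rose from 55.9 to 91.2 CPM in those of HK2 (0.71). LPIN1, a phosphatidate phosphatase, also fell in ACHN (-0.89) and rose in HK2 (0.33). ELOVL5, an elongase, fell in ACHN (-1.05), and AGPAT2, an acyltransferase of glycerolipid synthesis, fell in both lines (-1.36 and -1.38). MBTPS1, the protease that first cuts SREBP, was higher in ACHN double-knockdown cells (0.41). NR1H2, one of the LXR receptors, was higher in double-knockdown cells of both lines (0.35 and 0.52), and MYLIP, an LXR target, fell in ACHN (-0.41) and rose in HK2 (0.62). In ACHN shKDM5C cells 7 of the 30 were lower (23.3%) and 11 higher (36.7%), against 27.7% and 28.9% of all genes. In ACHN shYY1 cells these were 11 (36.7%) and 12 (40%), against 24.5% and 24.2%. In HK2, 29 of the 30 were tested in shYY1 and double-knockdown cells. After YY1 knockdown 8 were lower and 1 higher there, against 14.7% and 14.3% of all genes. In HK2 double-knockdown cells 8 were lower (27.6%) and 9 higher (31.0%), near the 24.3% and 25.5% of all genes. In HK2 shKDM5C cells ELOVL6 alone was called, lower, where 0.656% of all genes were lower. Without replicate 1 there were 8 lower and 4 higher, against 10.9% and 11.5% of all genes.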

How the data were processed

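The authors aligned paired-end reads to hg38 with HISAT2 (2.0.5, per the submitters' processing notes) and counted read pairs per gene of Ensembl release 84 with featureCounts (2.0.1 per the file headers, 1.5.0-p3 per the notes), with the paired option and without strand. The deposited values are raw counts, 1 library a file. Coordinates are those of the files. Because pairs in exons of more than 1 gene were not counted, overlapping genes were understated.

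The members and lists were chosen with earlier results of these data known. Groups came from the labels. edgeR 4.0.16 (R 4.3.3) was run on all genes passing its filter: TMM scaling, quasi-likelihood tests, Benjamini-Hochberg adjustment over all genes tested, calls at an adjusted p under 0.05, with 3 libraries a group. Each knockdown was fitted with shNC of its line; interactions used the 12 libraries of a line, differences between lines the libraries of both, and the lines' shNC groups were compared directly. Standard errors were derived from the test statistic. Named were all 32 genes, in every library a set list and the most changed genes with at least 10 CPM. The steps were tested on simulated data. Alternatives were DESeq2 1.42.0, RLE or total-count scaling, other filters on low counts, the replicate number as a block, all 4 groups in the fit and each library left out. The upper bound on an absent count, given with ABCG1, covers counting error only. No column of another sample was present.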

Additional observations from a re-analysis of the deposited data

Results flagged for a closer look

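Effects of the same knockdown differed between ACHN and HK2, by the test of the difference itself (edgeR, adjusted p under 0.05), for 4 of the 31 genes tested after KDM5C knockdown (11.9% of all genes differed), 16 after YY1 knockdown (33.1%) and 28 after the double knockdown (46%). The share of 4 in 31 is near that of all genes, and the count was 17 without HK2 shKDM5C replicate 1 (33.9% of all genes) and 1 with the replicate number as a block (5.33%). In the double knockdown, 6 of the 31 genes passed the test against shNC in opposite directions in the lines. The share of all genes with opposite calls was not counted, so the number cannot be read as particular to these genes. Of all genes, 32% were lower and 30.7% higher in ACHN double-knockdown cells, and 24.3% and 25.5% in those of HK2. INSIG1 (-1.25 in ACHN, 0.52 in HK2, difference -1.75), STARD4 (-0.79, 0.72, -1.49), SQLE (-1.11, 0.13, -1.22), SC5D (-0.30, 0.66, -0.94) and MSMO1 (-0.16, 0.71, -0.85) fell in ACHN and rose in HK2, all as log2 fold changes. SCAP rose in ACHN and fell in HK2 (0.53, -0.23, 0.78).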

How the results depend on the processing

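Of the counts of genes called in each comparison, 162 of 180 stayed within 1.5 times the reported count under the alternatives that kept all libraries, and 184 of 204 with a library left out. For HK2 shKDM5C the lower count went from 0 to 4 with DESeq2, 1 with total-count scaling, 1 with no filter on low counts and 5 with all 4 groups in the fit, the higher count from 0 to 1 with DESeq2 and with all 4 groups, and the count past 1.5-fold from 0 to 2 with DESeq2 or all 4 groups and 1 with total-count scaling or no filter. With a library left out these counts ranged from 0 to 15, 0 to 3 and 0 to 1, each highest without shKDM5C replicate 1, and ACACA turned from 0.10 to -0.17 (log2) there, with 0.23 as the highest value with a library left out. With all 4 groups the lower count was 2 (reported, 19) in HK2 shYY1 and 4 (reported, 11) in HK2 double-knockdown cells; the cause was not tested. The higher count of ACHN shYY1 was 1 in place of 2 with DESeq2, total-count scaling or all 4 groups, and 1 to 2 with a library left out, losing PMVK in 4 of 6 fits. For the HK2 interaction, the lower count was 0 with no filter and 0 to 2 with a library left out, and the higher count 6 to 20. Genes whose KDM5C knockdown effect differed between the lines numbered 4, 8 with DESeq2, and 2 to 17 with a library left out.

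Replicate numbers did not pair the libraries: deviations of same-numbered libraries correlated between -0.09 and 0.04 over 36 pairs of libraries. With the replicate number as a block, the count of genes whose KDM5C knockdown effect differed between the lines was 1, and of single gene calls 364 of 372 stayed as reported. In HK2 shKDM5C cells what was called depended on replicate 1 and on the fit. Low counts limit CYP51A1, INSIG2 and PMVK.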
